A study of Mus musculus with 6 samples.

Results

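The genes described here are 10 neutrophil granule and calprotectin genes of the mouse: Ngp, Camp, Ltf, Lcn2, Mmp8, Mmp9, S100a8, S100a9, Retnlg and Trem1. They were taken by name from a table of 21900 genes, and all 10 were found in it. RNA of mouse lung was sequenced after 10 weeks on a high fat diet, with 3 libraries carrying the genotype label Cyp1b1 KO and 3 carrying the label Wild Type. Libraries 1 and 2 of each label came from females and library 3 from a male, so the sexes are balanced but each label holds a single male. The labels hold no replicate numbers, so the libraries of each label were numbered here in the order of the samples. All 6 libraries share the diet, and the labels name no strain, age or type of knockout allele. The labels do not say in words that each library is a separate animal, so p-values measure only the spread between these libraries. Values are in CPM, the reads of a gene per 1000000 reads that were assigned to any gene. A CPM from bulk lung RNA cannot tell more cells of a type from more RNA per cell.

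Neutrophils are short-lived white blood cells that are made in the bone marrow and carry ready-made antimicrobial proteins in granules. Azurophil granules are filled first, then specific granules, then gelatinase granules, and the transcripts of most granule proteins are made while the cell matures and are largely switched off before it enters the blood. Calprotectin is the pair of S100A8 and S100A9, calcium-binding proteins that fill the cytosol of neutrophils and, at lower levels, of monocytes. The lung holds a large pool of neutrophils in its capillaries, and its airway epithelium also makes lactoferrin (Ltf) and lipocalin 2 (Lcn2).

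The depth of a library, in units of 1000000 assigned reads, lay between 20.2 and 27.6, and 3 reads were worth between 0.109 and 0.148 CPM. Lung markers were abundant in every library, with the summed alveolar type 2 list at 13686 to 18290 CPM in the libraries labelled knockout and at 15103 to 19382 CPM in those labelled wild type. The targeted gene went against the labels. Cyp1b1 was at 51.2, 56.1 and 48.4 CPM in labelled knockout 1, 2 and 3, against 12.5, 19.04 and 18.5 CPM in labelled wild type 1, 2 and 3. Every direction given for genotype below therefore rests on labels that Cyp1b1 does not bear out. Labelled knockout 3, the male, stands apart from the other 5 libraries in the granule genes, so results that rest on it are given with and without it.

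Of the 10 genes, 4 lie on chromosome 9, and Camp, Ngp and Ltf share a stretch of 1.20 Mb there. S100a8 and S100a9 are neighbours on chromosome 3 with start coordinates 23.7 kb apart. RefSeq (GRCm38.p6) gave a promoter, 250 bases before to 50 after the gene start, for 9 of the 10 genes. Promoters were searched on both strands for TTGCNNAA, a form of the motif of C/EBP factors, which drive granule genes during neutrophil maturation. It was found in 6 of the 9 promoters (Ngp, Ltf, Lcn2, Mmp8, S100a9 and Retnlg) and in 10.8% of all 32851 promoters. Ngp and Mmp8 are shown because they hold the motif and had among the largest differences described below, Lcn2 because it holds the motif and had a small one, and Camp because it had a large difference and holds no match. Capitals mark the match, and each sequence runs 5′ to 3′ on the strand of its gene.
Ngp (chr9:110419558-110419857, plus strand): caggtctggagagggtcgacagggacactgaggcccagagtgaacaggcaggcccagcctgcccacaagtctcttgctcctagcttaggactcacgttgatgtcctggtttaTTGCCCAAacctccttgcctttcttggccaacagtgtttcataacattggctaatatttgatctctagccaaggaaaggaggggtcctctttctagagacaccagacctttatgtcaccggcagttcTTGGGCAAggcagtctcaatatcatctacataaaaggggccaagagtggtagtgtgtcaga
Mmp8 (chr9:7558179-7558478, plus strand): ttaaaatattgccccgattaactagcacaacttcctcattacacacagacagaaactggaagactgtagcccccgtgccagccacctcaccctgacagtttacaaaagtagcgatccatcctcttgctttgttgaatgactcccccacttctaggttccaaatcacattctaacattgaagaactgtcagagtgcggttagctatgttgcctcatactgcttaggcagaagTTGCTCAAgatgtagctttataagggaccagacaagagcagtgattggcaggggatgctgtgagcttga
Lcn2 (chr2:32387690-32387989, minus strand): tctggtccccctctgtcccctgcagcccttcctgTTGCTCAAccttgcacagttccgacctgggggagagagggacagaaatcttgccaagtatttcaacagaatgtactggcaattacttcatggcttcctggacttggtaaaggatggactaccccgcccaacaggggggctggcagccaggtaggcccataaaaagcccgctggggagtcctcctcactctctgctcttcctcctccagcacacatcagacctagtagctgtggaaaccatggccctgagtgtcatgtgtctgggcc
Camp (chr9:109849407-109849706, minus strand): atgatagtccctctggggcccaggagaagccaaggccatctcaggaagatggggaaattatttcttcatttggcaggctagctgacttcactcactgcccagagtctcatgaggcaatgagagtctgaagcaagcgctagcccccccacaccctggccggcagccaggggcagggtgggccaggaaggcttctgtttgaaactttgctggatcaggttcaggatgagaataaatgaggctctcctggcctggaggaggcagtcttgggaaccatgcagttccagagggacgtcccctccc

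The Ngp promoter held matches that start 138 and 11 bases before the gene start, that of Mmp8 a match at 19 bases and that of Lcn2 a match at 216 bases. These distances are from the RefSeq gene start, not from the start of the GENCODE gene spans given below. The Lcn2 window lies wholly inside its GENCODE span of 32384633 to 32388252. Another 9 patterns were searched in the same way. The looser form TTNCNNAA, which takes in every TTGCNNAA match, was in 8 of the 9 promoters and in 40.7% of all. TTNNGAAA, each match of which is also a TTNCNNAA match on the other strand, was in 4 of the 9 promoters and in 17.2% of all. The ETS patterns GAGGAA and GAGGAAG, the second a part of the first, were in 5 and 3 of the 9 promoters and in 28.3% and 13.6% of all. TATAAA was in 3 of the 9 promoters and in 13.6% of all, TGTGGT (RUNX) in 2 and in 16.8%. A loose and a narrower form of the NF-kB motif, the second a part of the first, were in 3 and 0 of the 9 promoters and in 50.8% and 1.63% of all, and TGANTCA (AP-1) in 0 of the 9 and in 7.81%. A match describes letters in this window and does not show that a factor binds.

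Specific granule genes were high in the male labelled knockout and lower elsewhere. Ngp (ENSMUSG00000032484, chromosome 9, 110419747 to 110423012, plus strand) encodes neutrophilic granule protein, a cathelicidin-related protein of specific granules. It was at 2.46, 1.23 and 1050.1 CPM in labelled knockout 1, 2 and 3, against 1.93, 1.38 and 4.52 CPM in labelled wild type 1, 2 and 3. Labelled knockout 3 was 599-fold above the mean of the 4 females and 232-fold above the male labelled wild type. Camp (ENSMUSG00000038357, chromosome 9, 109847379 to 109849617, minus strand) encodes the precursor of the antimicrobial peptide cathelicidin. It was at 0.538, 0.109 and 129 CPM in labelled knockout 1, 2 and 3, against 0.461, 0.247 and 0.939 CPM in labelled wild type 1, 2 and 3. Its level in labelled knockout 2 was worth 3 reads, so ratios against the females are imprecise, while labelled knockout 3 stood 137-fold above the highest other library.

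Ltf and Lcn2 had a higher level outside labelled knockout 3 than Ngp and Camp. Ltf (ENSMUSG00000032496, chromosome 9, 111019271 to 111042767, plus strand) encodes the iron-binding protein lactoferrin. It was at 49.1, 36.7 and 1019 CPM in labelled knockout 1, 2 and 3, against 13.5, 72.5 and 32.1 CPM in labelled wild type 1, 2 and 3. The 4 females spanned 13.5 to 72.5 CPM, and the male labelled wild type lay inside that range. Lcn2 (ENSMUSG00000026822, chromosome 2, 32384633 to 32388252, minus strand) encodes lipocalin 2, which binds bacterial siderophores. It was at 61.02, 70.9 and 800.0 CPM in labelled knockout 1, 2 and 3, against 73.9, 102 and 259 CPM in labelled wild type 1, 2 and 3. Both males were above all 4 females for Lcn2, and labelled knockout 3 was 3.09-fold above labelled wild type 3, the smallest such ratio among the 10 genes.

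The 2 matrix metalloproteinases did not move in proportion. Mmp8 (ENSMUSG00000005800, chromosome 9, 7558456 to 7568485, plus strand) encodes neutrophil collagenase, stored in specific granules. It was at 5.42, 3.84 and 388 CPM in labelled knockout 1, 2 and 3, against 4.90, 4.105 and 7.60 CPM in labelled wild type 1, 2 and 3. Mmp9 (ENSMUSG00000017737, chromosome 2, 164940780 to 164955850, plus strand) encodes gelatinase B, the enzyme that gives gelatinase granules their name. It was at 32.8, 28.6 and 488 CPM in labelled knockout 1, 2 and 3, against 36.0, 31.3 and 38.3 CPM in labelled wild type 1, 2 and 3. Outside labelled knockout 3 the 5 values of Mmp9 lay within 28.6 and 38.3 CPM. The ratio of Mmp9 to Mmp8 CPM was 6.04, 7.43 and 1.26 in labelled knockout 1, 2 and 3, against 7.34, 7.61 and 5.04 in labelled wild type 1, 2 and 3.

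The calprotectin genes had the highest CPM of the set in labelled knockout 3. S100a8 (ENSMUSG00000056054, chromosome 3, 90668978 to 90670035, plus strand) was at 35.4, 20.5 and 1467 CPM in labelled knockout 1, 2 and 3, against 42.9, 22.8 and 54.2 CPM in labelled wild type 1, 2 and 3. S100a9 (ENSMUSG00000056071, chromosome 3, 90692632 to 90695721, minus strand) had levels of 53.5, 34.6 and 1278 CPM in labelled knockout 1, 2 and 3, against 57.8, 31.01 and 79.5 CPM in labelled wild type 1, 2 and 3. For both genes the male was the highest library of its label. S100a8 stood below S100a9 in 5 libraries and above it in the other, labelled knockout 3. The ratio of S100a8 to S100a9 CPM was 0.662, 0.594 and 1.15 in labelled knockout 1, 2 and 3, against 0.741, 0.737 and 0.682 in labelled wild type 1, 2 and 3.

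Retnlg (ENSMUSG00000022651, chromosome 16, 48872621 to 48874496, plus strand) encodes resistin-like gamma, a secreted protein of mouse neutrophils. It was at 13.2, 9.97 and 468 CPM in labelled knockout 1, 2 and 3, against 14.1, 8.51 and 17.3 CPM in labelled wild type 1, 2 and 3. Trem1 (ENSMUSG00000042265, chromosome 17, 48232768 to 48246924, plus strand) encodes a receptor that amplifies inflammatory signals on neutrophils and monocytes. It was at 6.59, 6.13 and 42.4 CPM in labelled knockout 1, 2 and 3, against 5.53, 4.402 and 7.21 CPM in labelled wild type 1, 2 and 3. With a 7.49-fold excess of labelled knockout 3 over the mean of the 4 females, Trem1 had the smallest such ratio of the 10 genes, and Ngp the largest.

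**Figure D1:**
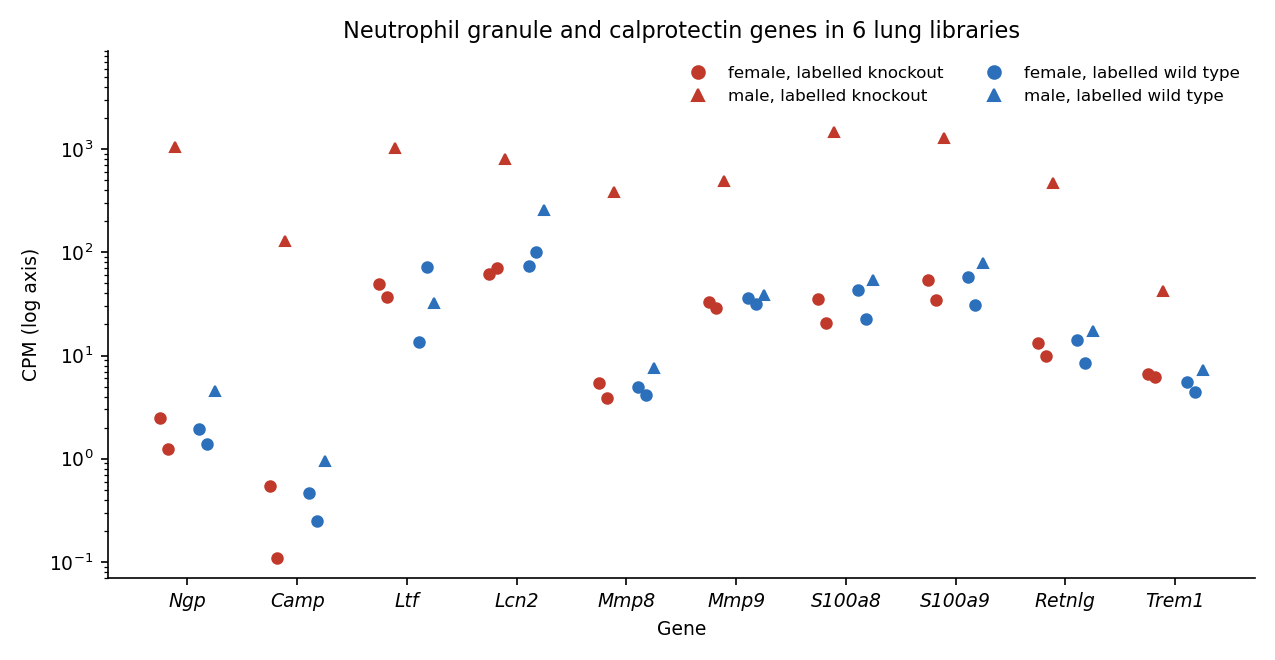
CPM on a log axis (y) for each of the 10 genes (x), with 1 point per library, those labelled knockout left of those labelled wild type, circles for females and triangles for males. The male labelled knockout lies above the other 5 libraries for all 10 genes, from 42.4 CPM for Trem1 to 1467 CPM for S100a8.

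Summed over the 10 genes, the level was 260, 213 and 7131 CPM in labelled knockout 1, 2 and 3, against 251, 278 and 500.4 CPM in labelled wild type 1, 2 and 3. The genes thus took 0.713% of assigned reads in labelled knockout 3 and 0.05004% in labelled wild type 3, against 0.0213% to 0.0278% in the 4 females. Labelled knockout 3 was the highest library for 10 of 10 genes, while it was the highest for 17.6% of all genes tested. Both males were above all 4 females for 9 of the 10, all except Ltf, against 9.28% of all genes tested.

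Per kilobase of exon, the order of levels differed between the libraries. In labelled knockout 3, S100a9 and S100a8 led with 2448 and 2114 CPM per kb, followed by Ngp (859), Retnlg (789), Lcn2 (305), Ltf (295), Camp (170.2), Mmp8 (160.0), Mmp9 (138) and Trem1 (14.2). In the mean of the 4 females S100a9 and S100a8 also led with 84.7 and 43.8 CPM per kb, followed by Lcn2 (29.3), Retnlg (19.3), Ltf (12.4), Mmp9 (9.08), Trem1 (1.89), Mmp8 (1.88), Ngp (1.43) and Camp (0.447). Ngp was therefore the third of 10 genes in labelled knockout 3 and the ninth in the females. Trem1 and Mmp8 differed in the females by less than their spread.

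The comparison of genotype asks how loss of CYP1B1 acts on the lung under the diet. Limma with genotype and sex as terms called 0 of the 10 genes at an adjusted p under 0.05, where it called 0.0115% of the 17382 genes tested (0 higher and 2 lower, or 3 and 3 with median centring or quantile normalization). At an unadjusted p under 0.05 there was 1 of the 10 (Trem1) and 892 of all genes. All 10 estimates were higher in the libraries labelled knockout, with a median log2 difference of 1.53 against -0.06 over all genes, but the SD within that label exceeded its mean for all 10. Ngp averaged 351 ± 605 CPM under the knockout label, against 2.61 ± 1.68 CPM under the wild type label (SD, n = 3 each; limma log2 difference 2.63, SE 1.30, adjusted p = 0.775). S100a8 averaged 508 ± 831 CPM under the knockout label, against 40.0 ± 15.9 CPM under the wild type label (SD, n = 3 each; limma log2 difference 1.44, SE 0.86, adjusted p = 0.775). Lcn2 averaged 311 ± 424 CPM under the knockout label, against 145 ± 99.7 CPM under the wild type label (SD, n = 3 each; limma log2 difference 0.28, SE 0.36, adjusted p = 0.851). The labels did not separate for any of the 10 genes, while they did for 9.52% of all genes tested. Exact two-sided permutation tests gave p between 0.3 and 1.0 per gene, where 3 against 3 cannot go below 0.1.

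In the 4 females the labels were close. Without the males, 9 of the 10 genes were tested (Camp fell below the filter on low values) and limma called 0 of these 9, where it called 0.0406% of 17234 genes, 0.0174% as higher. The 2 females labelled knockout and the 2 labelled wild type did not overlap for 2 of the 10 genes, against 28.9% of all genes tested. Lcn2 had an unadjusted p of 0.0355, at 61.02 and 70.9 CPM in the females labelled knockout and 73.9 and 102 CPM in those labelled wild type (limma log2 difference -0.39, adjusted p = 0.9999). The ratio of the mean CPM of the females labelled knockout to that of the females labelled wild type lay between 0.752 for Lcn2 and 1.28 for Trem1. The median log2 difference over the 10 genes was 0.02, against 1.53 with all 6 libraries. Without labelled knockout 3 the sex term takes up the remaining male, so the estimates are those of the females. They ran from -0.39 to 0.43 for the 9 genes tested.

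The difference between the labels was not the same in males as in females. By limma's interaction term, the knockout minus wild type difference was larger in the males for 9 of the 10 genes at an adjusted p under 0.05, where 2.54% of all genes tested were called 0.702% as higher and 1.84% as lower. Over all genes that is 122 higher and 319 lower, and with median centring it was 348 higher and 313 lower. The tenth gene was Ltf, whose females spread most (interaction log2 4.54, SE 1.04, adjusted p = 0.0653). Ngp had an interaction log2 of 7.62 (SE 0.55, limma adjusted p = 0.000418), the highest of all 17382 genes, followed by Camp with 6.58 (SE 0.69, limma adjusted p = 0.00266) and Mmp8 with 5.56 (SE 0.41, limma adjusted p = 0.000462). S100a8 was at 4.96, Retnlg at 4.66, S100a9 at 3.98 and Mmp9 at 3.79, with adjusted p between 0.000296 and 0.00635. Trem1 (2.14, SE 0.41, limma adjusted p = 0.0351) and Lcn2 (2.02, SE 0.27, limma adjusted p = 0.00908) had the lowest values. The median interaction log2 was 4.60 over the 10 genes and -0.13 over all genes.

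Camp passed the filter on low values only through labelled knockout 3, so it had to differ to be tested. With 1 male per label the term sets a difference between 2 lungs against the spread of the females, and it assumes that males vary like them. The calls of this term depended on how that spread was estimated: without a variance trend, or without the filter on low values, limma called 0 of the 10 genes and 0 of all genes. The 10 genes then had unadjusted p between 5.59e-05 and 0.0288 without the trend and between 2.53e-05 and 0.0266 without the filter, and 2641 and 3367 of all genes had an unadjusted p under 0.05. Trem1 was lost on leaving out labelled knockout 1 (adjusted p = 0.0768), labelled knockout 2 (0.0805) or labelled wild type 1 (0.0524). Ltf passed with median centring and when either female labelled wild type was left out. Over all alternatives the adjusted p of the 10 genes ran from 4.85e-05 to 0.282.

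Each male was also set against the females of its own label, in fits of 5 libraries that leave the other male out. A single male has no spread of its own, so the error comes from the females and the male is assumed to vary like them. The male labelled knockout was higher for 10 of 10 genes, where limma called 4.87% of 17256 genes, 2.46% as higher. Camp, 1 of the 10, entered that fit only because it is high in this male. The log2 differences there ran from 2.65 for Trem1 (limma adjusted p = 0.00322) and 3.59 for Lcn2 (adjusted p = 0.000146) to 8.86 for Ngp (adjusted p = 6.00e-05). The male labelled wild type was higher for 1 of 9 genes tested, where limma called 4.17% of 17369 genes, 3.51% as higher. That gene was Lcn2, with a log2 difference of 1.57 (SE 0.20, limma adjusted p = 0.00413) and a level 2.95-fold above the mean of the females of its label. Ngp and S100a9 had differences of 1.23 and 0.90 (limma adjusted p = 0.229 and 0.239). Mmp9 and Ltf were at 0.19 and 0.03, with adjusted p of 0.678 and 0.992.

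**Figure D2:**
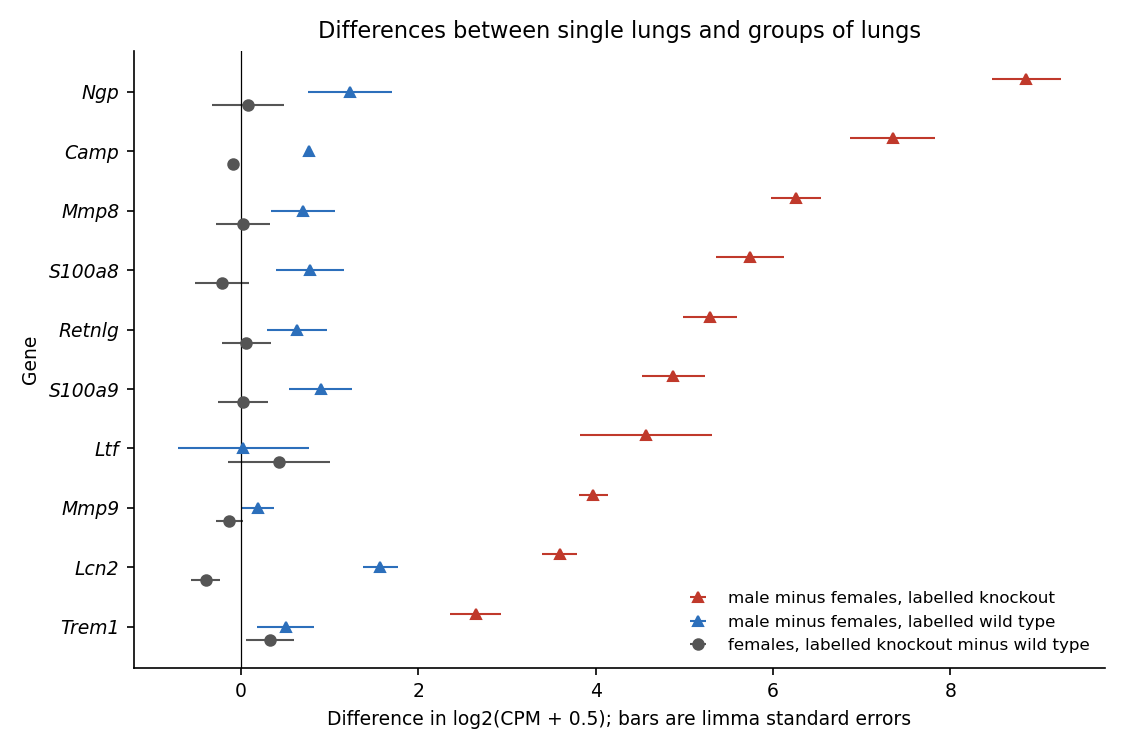
Differences in log2(CPM + 0.5) on the x axis for each gene (y), with limma standard errors as bars: each male minus the females of its label (triangles) and the females labelled knockout minus those labelled wild type (circles). Camp has bars in the first comparison only, because it fell below the filter without the male labelled knockout; the red triangles run from 2.65 to 8.86 and the circles from -0.39 to 0.43.

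With both males in 1 fit, the sex term called 1 of the 10 genes, where 0.834% of all genes tested were called, 0.627% as higher. Lcn2 averaged 529 CPM in the 2 males and 76.9 ± 17.4 CPM in the 4 females (SD, n = 4; limma log2 difference 2.58, SE 0.39, adjusted p = 0.0320). This call ended without labelled knockout 1 (adjusted p = 0.0869), labelled knockout 2 (0.162) or labelled wild type 1 (0.0893), and with no variance trend (0.168). All 10 genes had an unadjusted limma p under 0.05 for sex, as had 2656 of the 17382 genes tested. The 10 genes were higher in the males, with a median log2 difference of 2.92, against -0.05 over all genes. The adjusted p of the 9 other than Lcn2 lay between 0.126 and 0.309. Sex cannot be told apart from other properties of these 2 lungs.

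**Figure D3:**
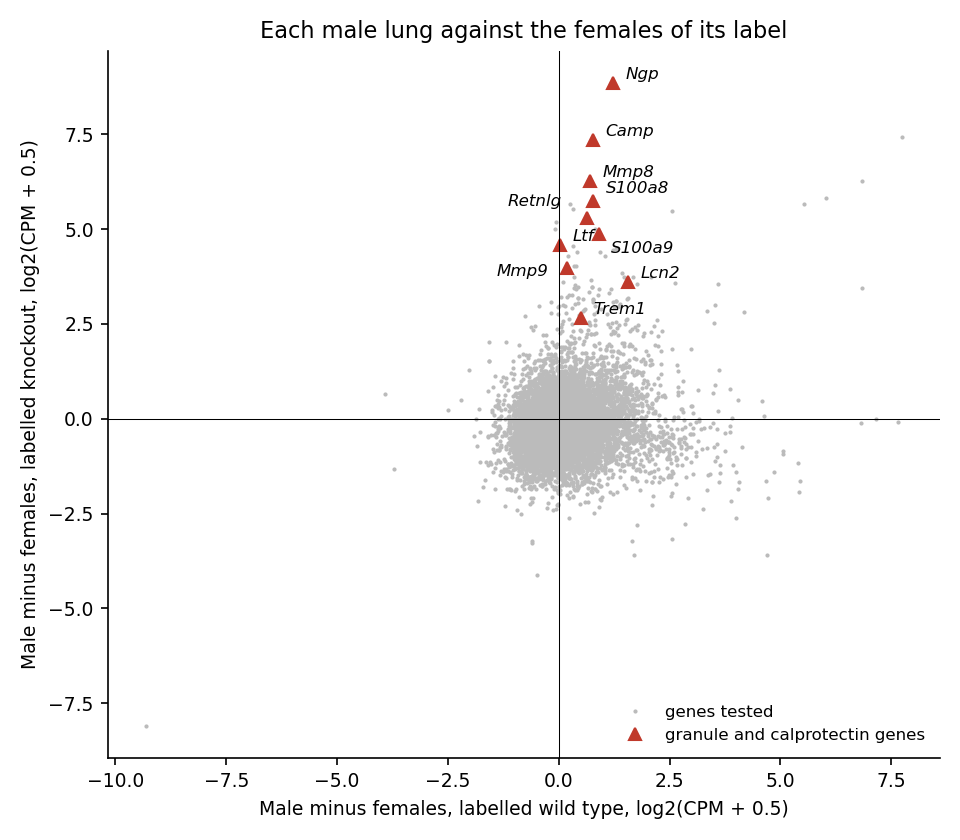
Each point is 1 of the genes tested, with the male minus the females labelled wild type on the x axis and the male minus the females labelled knockout on the y axis, both in log2(CPM + 0.5). The 10 granule and calprotectin genes (red) have a median of 0.73 on the x axis and 5.08 on the y axis, where all genes tested have medians of 0.01 and -0.13.

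Other neutrophil genes came from lists drawn up with earlier results of these data known. Among azurophil granule genes, 7 of 8 were found and 5 tested; the interaction term called 2 higher and 1 lower. Mpo passed the filter on low values only through labelled knockout 3, so it had to be high there to be tested, and its call is no support. Mpo, myeloperoxidase, was without a read in labelled knockout 1 and 2 and at 15.5 CPM in labelled knockout 3, against 0.168 CPM, no read and 0.0428 CPM in labelled wild type 1, 2 and 3 (interaction log2 5.09, limma adjusted p = 0.0109). Prtn3, proteinase 3, was at 1.39, 1.23 and 13.7 CPM in labelled knockout 1, 2 and 3, against 1.13, 0.989 and 0.640 CPM in labelled wild type 1, 2 and 3 (interaction log2 3.43, limma adjusted p = 0.0223). Ctsc, the protease that activates granule serine proteases and is also made by macrophages, was the lower one. It was at 210.0 CPM in labelled knockout 3, against 478 CPM in labelled wild type 3 (interaction log2 -0.87, limma adjusted p = 0.0359). Its call was lost with median centring (limma adjusted p = 0.0996). The same held without labelled knockout 1 or 2, where the interaction log2 was -0.87 and -0.88. Elane, neutrophil elastase, chosen after its values were seen, fell below the filter and was at 2.53 CPM in labelled knockout 3, against 0.0428 CPM in labelled wild type 3. It was without a read in the 4 females.

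Of 16 other granule and granule membrane genes, all tested, the interaction term called 5 higher and 0 lower. Cd177, a neutrophil surface glycoprotein, was at 9.05, 11.1 and 248 CPM in labelled knockout 1, 2 and 3, against 9.42, 11.2 and 12.9 CPM in labelled wild type 1, 2 and 3 (interaction log2 4.25, limma adjusted p = 0.000591). Itgb2l, Padi4 and Pglyrp1 were called with interaction log2 of 5.25, 2.72 and 2.29; Padi4 makes the citrulline that opens chromatin in extracellular traps, and Pglyrp1 encodes a peptidoglycan-binding protein known in humans as a ligand of TREM1. Chil3, a chitinase-like protein that macrophages make as well, was called although its male labelled knockout was not the highest library. Chil3 was at 58.4, 64.5 and 231 CPM in labelled knockout 1, 2 and 3, against 279, 224 and 238 CPM in labelled wild type 1, 2 and 3.

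Markers of mature neutrophils gave the following. Of 21 genes 19 were found and 17 tested, and the interaction term called 8 higher and 0 lower; with a pseudocount of 0.1 it called 4. Ly6g is among the 8 but passed the filter only through labelled knockout 3, as Mpo did. Ly6g, the surface marker of mouse neutrophils, was at 0.896, 0.0364 and 43.3 CPM in labelled knockout 1, 2 and 3, against 0.0838, 0.346 and 0.342 CPM in labelled wild type 1, 2 and 3 (interaction log2 5.40, limma adjusted p = 0.0199). Cxcr2, the chemokine receptor that calls neutrophils out of the marrow, was at 21.1, 12.7 and 180 CPM in labelled knockout 1, 2 and 3, against 20.4, 12.02 and 30.01 CPM in labelled wild type 1, 2 and 3 (interaction log2 2.50, limma adjusted p = 0.0417). Its call was lost with a pseudocount of 0.1 (limma adjusted p = 0.0541) and with quantile normalization (0.0597). The same held without labelled knockout 2, where the interaction log2 was 2.14. Wfdc21, Mrgpra2b, Asprv1, Il1r2, Hdc and Mxd1 were the other 6, with interaction log2 from 1.49 to 4.19. Among the 8 called, the excess over the highest other library ran from 2.03-fold for Hdc to 48.3-fold for Ly6g. It was 3.004-fold for Mxd1, 5.98-fold for Cxcr2 and 24.5-fold for Mrgpra2b. Among the 10 granule and calprotectin genes it ran from 3.09-fold for Lcn2 to 232-fold for Ngp. Trem1 was at 5.88-fold and Camp at 137-fold, so the ranges of the mature markers and the granule and calprotectin genes overlapped.

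Few transcription factors, chemoattractants and partners of the 10 genes were called. Of 7 factors of granulocyte formation found and tested, the interaction term called 0, but 2 with median centring and 1 each with a pseudocount of 2 and without labelled wild type 2. Cebpe, which encodes a C/EBP factor needed for specific granules, was at no read, 0.254 and 5.18 CPM in labelled knockout 1, 2 and 3, against 0.293, 0.0990 and 0.213 CPM in labelled wild type 1, 2 and 3 (interaction log2 3.16, limma adjusted p = 0.0756). It passed the filter only through labelled knockout 3, and its adjusted p was 0.0442 with median centring, 0.0246 with a pseudocount of 2 and up to 0.186 over the alternatives run. Gfi1, a repressor needed for neutrophil formation, was at 1.21, 1.60 and 0.234 CPM in labelled knockout 1, 2 and 3, against 0.544, 0.841 and 2.77 CPM in labelled wild type 1, 2 and 3 (interaction log2 -2.84, limma adjusted p = 0.0695). Of 6 chemoattractant genes tested, 1 was called higher, Ppbp, which is a platelet gene as well (interaction log2 3.62, limma adjusted p = 0.0162). Of 13 partners, receptors and inhibitors tested, 1 was called higher, Pglyrp1. With all 6 libraries none of the genes in these lists was called for genotype. Chil3 was called lower in the females alone (limma log2 difference -2.02, adjusted p = 0.000469), with the female values given above. Leaving out either male gave the same log2 difference, because the sex term then takes up the other male and only the females are compared. Without the filter or without a variance trend, the interaction term called 0 genes in every list.

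**Figure D4:**
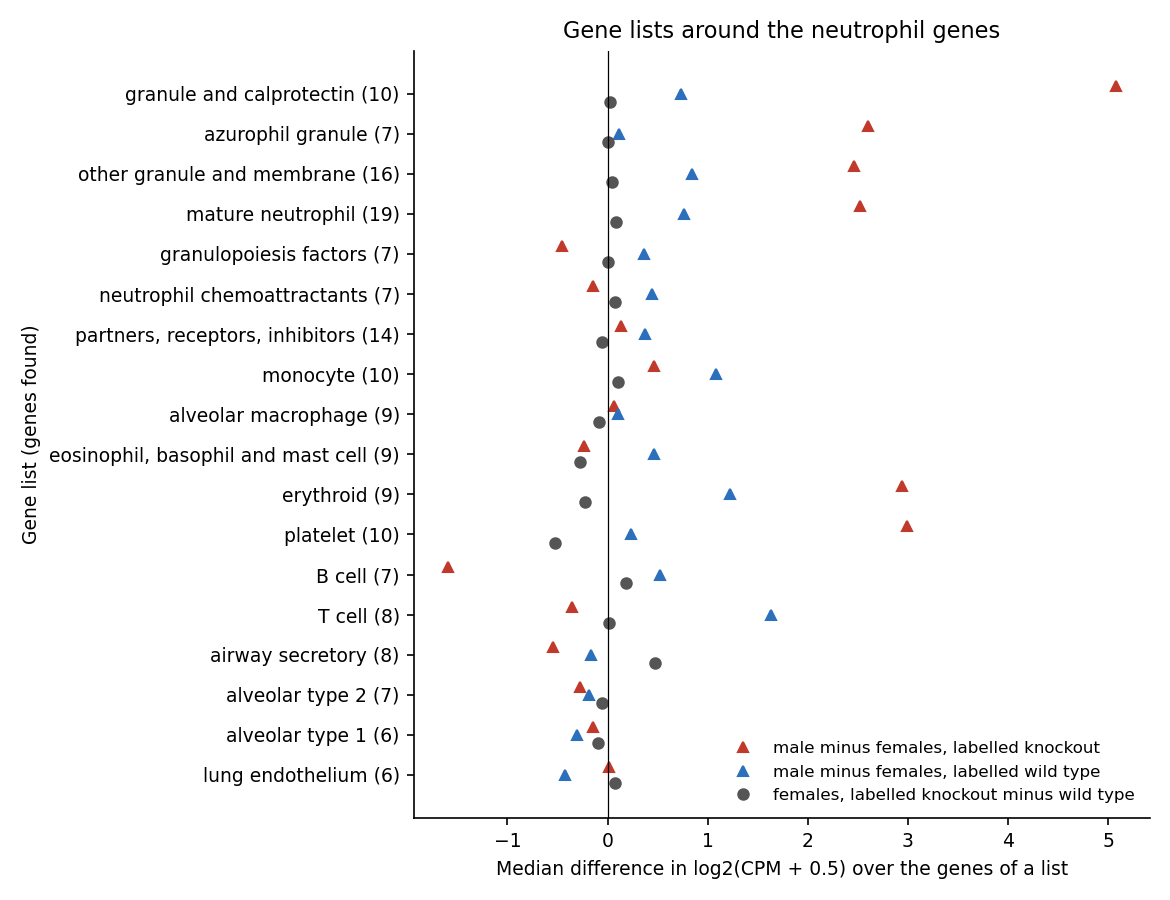
Median difference in log2(CPM + 0.5) (x) over the genes found of each list (y), for each male minus the females of its label (triangles) and for the females labelled knockout minus those labelled wild type (circles). The red triangle is at 5.08 for the 10 genes, at 2.99 for platelet and 2.94 for erythroid markers. It is at 2.60 for azurophil granule, 2.52 for mature neutrophil and 2.46 for other granule and membrane genes.

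Summed markers of red cells and platelets were highest in the male labelled knockout, as the granule genes were, and those of B cells were lowest there. Erythroid markers summed to 6009 CPM there, against 882 to 1650 CPM in the 4 females and 2810 CPM in labelled wild type 3, and it was the highest library for 9 of 9. The interaction term called 0 of these 9, but 4 with median centring and 6 without labelled wild type 2. Hbb-bs and Hba-a2, the globin genes of highest level, were at 2141 and 1781 CPM. Platelet markers summed to 459.9 CPM in that male, against 49.4 to 90.4 CPM in the females and 90.0 CPM in labelled wild type 3, and it was the highest library for 10 of 10, with Ppbp at 156 and Itga2b at 93.6 CPM. The interaction term called 6 of 10 higher, but 2 without labelled knockout 1 and 4 without labelled knockout 2 or labelled wild type 1. B cell markers summed to 81.2 CPM in it, against 168 to 291 CPM in the females and 301 CPM in labelled wild type 3, and it was the lowest library for 7 of 7, with Cd79a at 13.6 and Cd79b at 12.6 CPM. The share of all genes that were lowest in it was not counted. Its median log2 difference from the females of its label was -1.60 for B cell markers, against -0.13 over all genes tested. The interaction term called 3 of 7 lower, but 0 when labelled knockout 1 was left out, 7 when labelled wild type 1 was, and 1 with quantile normalization. T cell markers summed to 42.2 CPM in it, inside the 41.7 to 60.5 CPM of the females, and it was labelled wild type 3 that stood apart with 181 CPM. The interaction term called 2 of these 8 lower, between 1 and 4 with a female left out. The part of these cells in the granule gene levels was not tested.

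Monocytes make calprotectin and Trem1 too. Their 10 markers summed to 2944 CPM in the male labelled knockout, against 1734 to 1865 CPM in the females and 1914 CPM in labelled wild type 3. Most of that 2944 CPM was Ace, and this male was the highest library for 4 of 10. The median log2 difference from the females of the same label was 0.47 for this male and 1.08 for labelled wild type 3. The median interaction log2 was -0.48. The interaction term called 2 higher, Ace and F13a1, and these calls were lost without labelled knockout 1 or 2. It also called 1 gene lower with median centring and 1 with a pseudocount of 2, and some lower without either female labelled wild type. Ace, which lung endothelium makes as well, led that list with 2243 CPM in the male labelled knockout, and Nr4a1 was at 113 CPM there. The monocyte receptor gene Ccr2 and the surface marker Ly6c2, chosen after their values were seen, were at 107 and 81.1 CPM in labelled knockout 3, 113 and 56.0 CPM in labelled wild type 3, and at 34.3 to 46.6 and 11.9 to 19.7 CPM in the females. Alveolar macrophage markers summed to 336 CPM in the male labelled knockout, inside the 318 to 358 CPM of the females, with Car4 (117 CPM there) and Mrc1 (70.6 CPM) at the highest levels. Car4 is in the lung endothelium list as well, so this sum is not of macrophages alone. Markers of eosinophils, basophils and mast cells were low, at 17.7 CPM in that male, 14.5 to 15.8 CPM in the females and 16.6 CPM in labelled wild type 3, led by Siglecf and Cma1. Siglecf is in the alveolar macrophage list too. The mitochondrial share of reads was 5.46% in labelled knockout 3, 3.24% in labelled wild type 3 and 3.51% to 4.99% in the females.

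Airway epithelium also makes Ltf, and the 8 airway secretory genes of the list did not vary alike. Their sum was 24960, 30236 and 13969 CPM in labelled knockout 1, 2 and 3, against 27695, 30624 and 18576 CPM in labelled wild type 1, 2 and 3, an order that differs from that of Ltf. Scgb1a1 and Cyp2f2, the airway genes of highest level, make up most of it. Scgb1a1 was at 19476, 24282 and 9396 CPM in labelled knockout 1, 2 and 3, against 23722, 23890 and 14852 CPM in labelled wild type 1, 2 and 3. Cyp2f2 was at 3723, 3523 and 3056 CPM in labelled knockout 1, 2 and 3, against 3017, 3925 and 2422 CPM in labelled wild type 1, 2 and 3. Among the 5 libraries other than labelled knockout 3, Ltf was lowest in labelled wild type 1 and highest in labelled wild type 2. The first of these held for 5 of the 8 airway genes, the second for 5 and both for 4.

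The choice of Muc5b and Bpifb1, which are among those 4, was made with their values known. Muc5b, a secreted mucin of the airways, was at 268, 280 and 222 CPM in labelled knockout 1, 2 and 3, against 80.3, 527 and 244 CPM in labelled wild type 1, 2 and 3. Bpifb1, an airway secretory protein, was at 99.1, 149 and 99.6 CPM in labelled knockout 1, 2 and 3, against 24.5, 281 and 85.9 CPM in labelled wild type 1, 2 and 3. In labelled knockout 3 both lay inside the range of the females. The part of airway tissue in the level of Ltf was not tested.

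**Figure D5:**
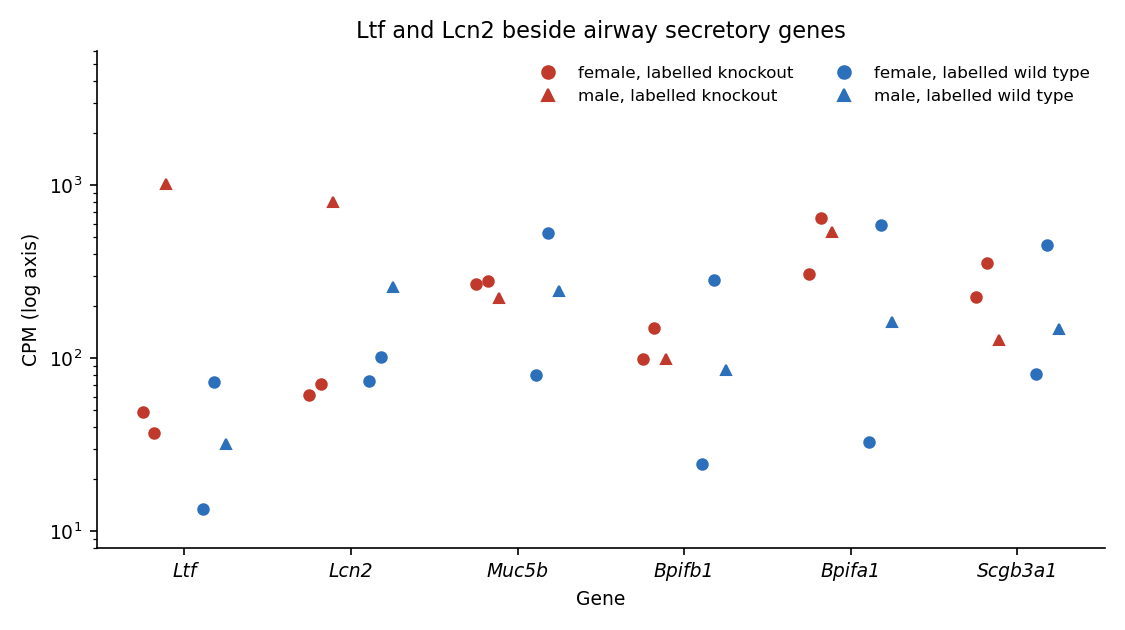
CPM on a log axis (y) of Ltf, Lcn2 and 4 airway secretory genes (x), 1 point per library, those labelled knockout left of those labelled wild type. Labelled wild type 1 is the lowest point for Ltf (13.5 CPM), Muc5b (80.3 CPM) and Bpifb1 (24.5 CPM), while the male labelled knockout leads for Ltf and Lcn2 only.

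The 6 genes outside the set whose profile over the 6 libraries lay nearest to the median profile of the 10 were Wfdc21, Prok2, Mpo, Ifitm6, Olfm4 and Mrgpra2b, among 16016 genes with a mean of at least 1 CPM. Prok2, Mpo, Olfm4 and Mrgpra2b reached that mean only through labelled knockout 3. Without it their means were 0.0257, 0.0421, 0.517 and 0.709 CPM, so they had to be high there to be compared. Nearness was the root mean square distance between centred log2(CPM + 0.5) profiles, and it ran from 0.21 to 0.33. Wfdc21 was at 2.87, 1.96 and 91.2 CPM in labelled knockout 1, 2 and 3, against 1.88, 2.03 and 3.80 CPM in labelled wild type 1, 2 and 3. Prok2 was at 22.7 CPM in labelled knockout 3, against 0.128 CPM in labelled wild type 3, and without a read in the 4 females. Ifitm6 was at 5.38, 4.60 and 201 CPM in labelled knockout 1, 2 and 3, against 7.08, 2.28 and 6.57 CPM in labelled wild type 1, 2 and 3. These profiles are set mainly by the single high library, so their likeness is a description.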

How the data were processed

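RNA of 6 mouse lung libraries was measured by sequencing. The authors deposited CPM values per gene, 1 column per library, in which every value has 0.0001 added, as the lowest values show; each column sums to 1000002 as rounded. Per the submitters' processing notes, TopHat2 and Partek were used with build mm10; no source used here gives versions, annotation, filters or strand setting, so overlapping genes can share reads. Positions and exon lengths came from GENCODE release M21 (GRCm38, the assembly of mm10), which holds 21846 of the 21900 identifiers. Depth was read from the smallest step between low CPM values; 82.1% to 83.3% of values worth up to 100 reads were whole multiples within 0.05, so no count model was run. Floors cover counting error only.

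Limma 3.58.1 (R 4.3.3, variance trend) was fitted to log2(CPM + 0.5) of 17382 genes with a mean of at least 0.5 CPM, with genotype and sex as terms, and again with their interaction. Tests were two-sided, p-values were Benjamini-Hochberg adjusted over all genes tested, and the threshold was 0.05. Log2 differences on this scale understate changes of low genes. The 10 genes, the lists and the tests were chosen with earlier results of these data known. Other genes were named by rule: list members past the threshold, or the 2 of smallest p; for cell types the 2 of highest level; and the 6 nearest profiles. The fit was also run on simulated data in which males varied like females, so that run cannot show whether they do. Promoters came from RefSeq (GRCm38.p6). Python 3.11.15, pandas 2.3.3, numpy 2.4.6, scipy 1.17.1 and matplotlib 3.10.9 were used. Alternatives were pseudocounts of 0.1 and 2, no filter or a mean of 5 CPM, quantile normalization, median centring, no variance trend, fewer terms, females alone and leaving out each library.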

Additional observations from a re-analysis of the deposited data

Results flagged for a closer look

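The knockout minus wild type difference was larger in males than in females for 9 of the 10 genes, by the interaction term of limma, and each of these was picked out because the 2 sexes differed. The interaction log2 was 7.62 for Ngp, 6.58 for Camp, 5.56 for Mmp8, 4.96 for S100a8, 4.66 for Retnlg, 3.98 for S100a9, 3.79 for Mmp9, 2.14 for Trem1 and 2.02 for Lcn2. Over all genes tested the term called 2.54%, 0.702% as higher. Each value rests on 1 male per label, and Camp passed the filter on low values only through labelled knockout 3. With 3 libraries per label, no test for a single outlying library was made.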

How the results depend on the processing

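No paired analysis was possible because the labels give no replicate numbers. Genotype called 0 of the 10 genes in all alternatives run. In the females alone, values turned to -0.39 for Lcn2, -0.13 for Mmp9 and -0.21 for S100a8. Leaving out 1 library gave genotype differences of -0.092 to 2.95 for Camp, -0.39 to 0.60 for Lcn2, -0.13 to 1.55 for Mmp9 and -0.21 to 2.17 for S100a8, the lowest without either male. Without 1 of the males that estimate is the difference between the females. The sex term called 0 or 1 of the 10 genes with a female left out. Without labelled wild type 3 only 1 male remained, and the sex differences ran from 2.65 for Trem1 to 8.86 for Ngp. Without labelled knockout 3 they ran from 0.03 for Ltf to 1.57 for Lcn2 in the 9 genes tested. Without a variance trend the sex term called 0 of 10, where 9 of the 10 and 2508 of all genes tested had an unadjusted limma p under 0.05. The interaction term called 0 without the filter and 0 without a variance trend, and between 8 and 10 in the other alternatives run; the cause was not tested. It cannot be fitted without either male, and Camp has no value where it fell below the filter. Over all genes, genotype calls ran from 1 to 7 against 2, sex calls from 11 to 840 against 145, and interaction calls from 0 to 661 against 441; without labelled knockout 1 the last was 230. Median centring moved the median of all interaction values by 0.23 and that of genotype by 0.10, and quantile normalization moved the interaction median by 0.17; the 10 genes stayed above 0 in both.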
